A study of Mus musculus with 4 samples.

Results

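The chromatin of 38 genes of the TGF-beta and BMP signalling pathway was examined in ATAC-seq peak lists of mouse visceral adipose tissue. The genes were taken by name, with earlier results of these data known, from 21000 genes with a curated coding transcript. They were 11 ligand genes, 11 receptor genes, 8 SMAD genes, 4 antagonist genes and the 4 Id genes, which are known targets of BMP signalling. All 38 were found in the annotation. ATAC-seq uses a transposase that cuts open chromatin, so a peak marks a stretch of accessible DNA. The tissue came from 8-week-old mice of CD-1, an outbred stock whose animals also differ from each other in sequence. The 2 control libraries, control 1 and control 2, came from descendants of dams given sesame oil. The 2 BPA libraries, BPA 1 and BPA 2, descended from F0 dams that received BPA (bisphenol A, used in making plastics) by injection, at 50 mg/kg between embryonic days 7.5 and 13.5. The sources differ on the generation of the BPA animals, and they name neither sex nor batch, so batch and treatment cannot be told apart.

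TGF-beta, activin and BMP ligands are secreted dimers that bring together type I and type II receptor kinases on the cell surface. The type I receptor phosphorylates receptor SMAD proteins, which join Smad4 and enter the nucleus. Smad6 and Smad7 act as feedback inhibitors of the pathway. In adipose tissue the family is known for its part in the commitment of progenitors to the fat lineage, in fibrosis and in the control of thermogenic fat, and antagonists such as noggin and gremlin bind BMPs outside the cell.

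The 4 lists held 72370 to 98055 peaks. The lists carry no read totals. The median pile-up of fragments at a summit for control 1, control 2, BPA 1 and BPA 2 was 22, 23, 19 and 38. The lowest local background, a rough measure of depth, was 1.16 in BPA 1 and between 2.70 and 3.80 in the others. Peaks were therefore compared by rank, the place of a peak in its own list ordered by −log10 q-value, as a percent of that list, where a low percent is a strong peak. All 7 adipocyte marker genes had a promoter peak in each library. The libraries of the groups also differed in markers of another cell type. Of 10 endothelial genes, 3 had a promoter peak in control 1 and 2 in control 2, against 10 in each BPA library. The smallest two-sided p-value of an exact permutation test over 2 against 2 libraries is 0.33, so no test was made and all differences between groups below are descriptions.

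Most of the 38 genes had open promoters in this tissue. A promoter peak, one within 500 bp of a curated start site, was present in all 4 libraries for 33 of the 38 genes (86.8%), while 57.9% of all coding genes had one in all 4. By library, promoter peaks were found for 35 (control 1), 34 (control 2), 37 (BPA 1) and 35 genes (BPA 2). The 5 exceptions were the ligand genes Gdf10, Bmp8b and Bmp4 and the antagonist genes Fst and Grem1. Keeping only the best 20000 peaks of each list lowered the count to 17 of 38, with 40.2% of coding genes. Asking for the summit of the peak within 500 bp of a start site gave 27 of 38, with 50.9% of coding genes.

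**Figure D1:**
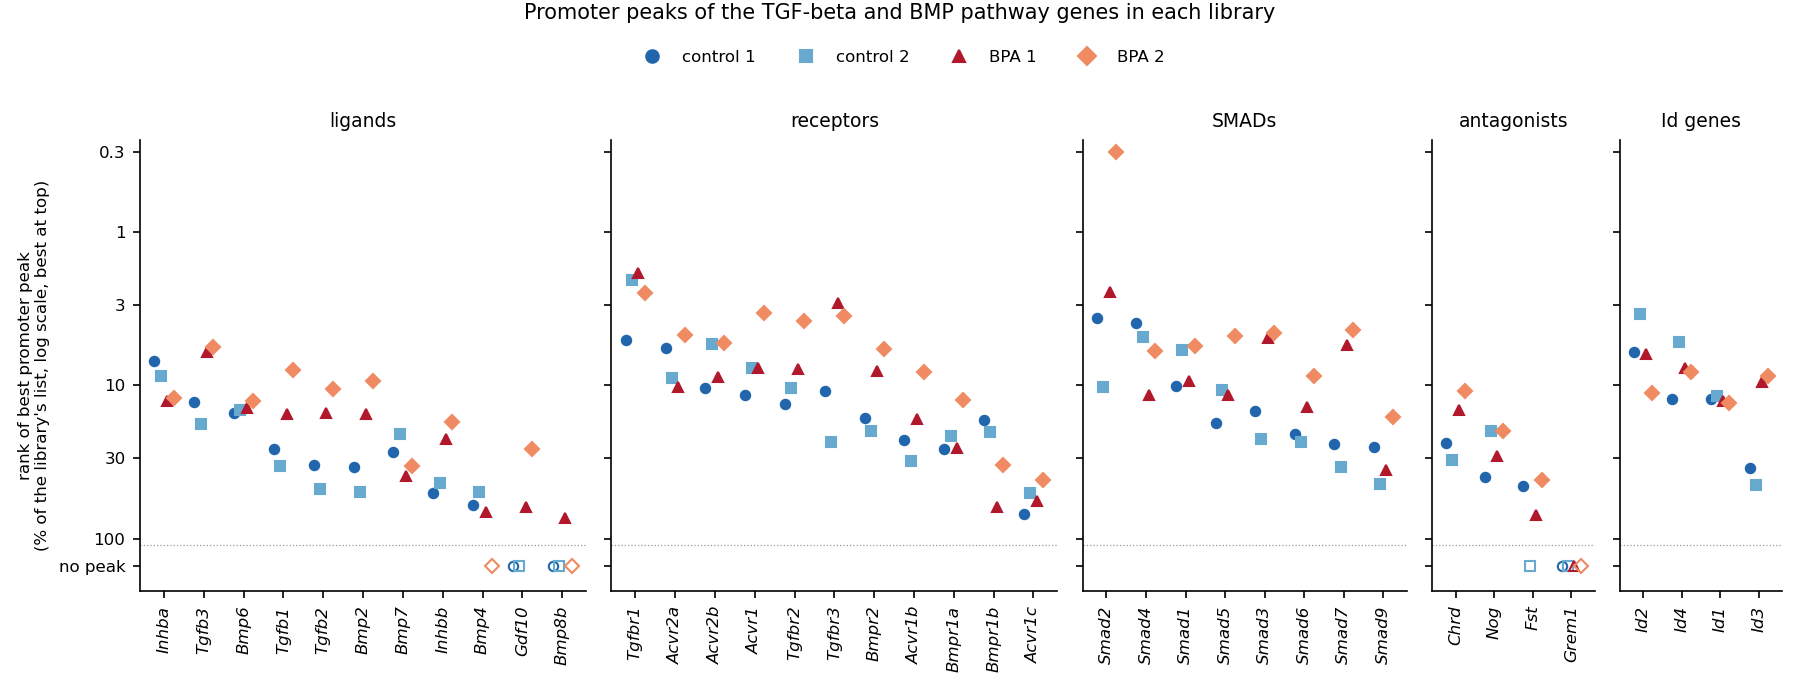
Rank of the best promoter peak of each of the 38 genes in each library, as a percent of the library's peak list on a log axis with the strongest at the top, grouped by role. Open symbols at the bottom mark a library without a promoter peak, which occurs for Bmp4, Gdf10, Bmp8b, Fst and Grem1.

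The groups of genes differed in how often they were open. All 11 receptor genes and all 8 SMAD genes had a promoter peak in every library, and so did the 4 Id genes. Ligand genes did so in 8 of 11 cases and antagonist genes in 2 of 4. These counts depended on the definition of a promoter peak. With the summit inside the 500 bp window they were 9 receptor, 7 SMAD, 4 Id, 5 ligand and 2 antagonist genes. With the best 20000 peaks they were 6 receptor, 5 SMAD, 3 Id, 3 ligand and 0 antagonist genes. The peaks of ligand genes also ranked lower than those of receptor genes. The median rank of ligand genes was 26.6%, 27.1%, 15.3% and 11.3% in control 1, control 2, BPA 1 and BPA 2, against 13.3%, 19.9%, 8.85% and 5.27% for receptor genes. In the same order the SMAD genes stood at 16.3%, 16.6%, 10.4% and 5.17%. Over all coding genes the medians were 8.45%, 9.77%, 8.43% and 5.93%. All these medians were taken over genes with a promoter peak in every library. The ligand median was weaker than that of coding genes in each library. The receptor and SMAD medians were weaker too in every library but BPA 2.

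Among the ligands, Inhba, which encodes the subunit of activin A, and Tgfb3, a TGF-beta isoform, had the strongest promoter peaks by mean rank over the 4 libraries. Inhba ranked at 6.92% and 8.65% in the controls and at 12.6% and 12.1% in BPA. Both controls thus ranked ahead of both BPA libraries. Inhbb, the subunit of activin B, was the weakest by mean rank among the ligand promoters open in all libraries, at 50.6% and 43.7% in the controls and 22.3% and 17.4% in BPA, where Bmp7 was weaker still. Its groups did not overlap either, in the opposite direction to Inhba.

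Gdf10, a BMP-like ligand also called Bmp3b, was the only one of the 38 genes whose promoter had a peak in each BPA library and none in the controls. Over all coding genes 2.51% had this pattern, so that 1 of 38 is near the background. The peak ranked at 62.5% of the list of BPA 1, with a pile-up of 17 and a fold over local background of 4.74. In BPA 2 it ranked at 26.0%, with a pile-up of 82 and a fold of 5.35. Its summits lay 60 and 55 bp before the start site. None of the 38 had a promoter peak in both control libraries alone, a pattern of 0.433% of coding genes.

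The remaining partly open promoters had weak peaks. Bmp8b, a ligand known from brown fat, had a promoter peak in BPA 1 alone, at 73.0% with a pile-up of 10. Bmp4, a ligand that commits progenitors to the fat lineage, ranked at 60.3% and 49.7% in the controls and 66.7% in BPA 1, and BPA 2 had no such peak. Another Bmp4 region, with its summit 3397 bp downstream and near the start site of Gm15222, had a peak in all 4 libraries. That region ranked at 51.6% and 39.2% in the controls and at 22.7% and 14.1% in BPA. Fst encodes follistatin, which binds activin. Its promoter peak ranked at 45.2% in control 1, 70.0% in BPA 1 and 41.2% in BPA 2, and there was none in control 2. In BPA 2 that peak was 4600 bp wide. Merged over the libraries, this accessible stretch had a peak in all 4, with control 2 best at 28.1%, whose peak lay upstream, outside the 500 bp window. Grem1, encoding the BMP antagonist gremlin, had no promoter peak in any library, and its window held 1 region, in the intron, with a peak in BPA 1 alone.

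The reference promoters of 5 members are shown, as RefSeq gives them for GRCm38.p6, as 300 bp windows that run from upstream of the start site into the transcript, 5′ to 3′ along the gene. Gdf10 was open in BPA alone and Grem1 in no library. Smad3 and Id3 had non-overlapping ranks between the groups, and Smad6 holds the palindrome described with the motifs at the end. Capitals mark the searched letters GTCTAGAC, GGCGCC and CAGACA on either strand.
Gdf10 promoter, chr14:33923337-33923636, plus strand: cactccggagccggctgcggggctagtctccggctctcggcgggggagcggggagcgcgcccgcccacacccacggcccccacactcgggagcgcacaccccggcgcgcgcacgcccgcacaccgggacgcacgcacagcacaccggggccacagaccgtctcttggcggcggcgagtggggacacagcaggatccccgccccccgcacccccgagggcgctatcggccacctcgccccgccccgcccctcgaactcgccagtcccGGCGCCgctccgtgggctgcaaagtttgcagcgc
Grem1 promoter, chr2:113758599-113758898, minus strand: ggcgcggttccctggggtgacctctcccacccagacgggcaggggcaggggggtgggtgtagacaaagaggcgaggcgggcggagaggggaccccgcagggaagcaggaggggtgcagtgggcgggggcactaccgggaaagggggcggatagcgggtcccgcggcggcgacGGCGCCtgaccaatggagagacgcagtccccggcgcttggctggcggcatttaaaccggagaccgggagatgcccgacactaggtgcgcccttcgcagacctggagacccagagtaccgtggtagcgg
Smad3 promoter, chr9:63757945-63758244, minus strand: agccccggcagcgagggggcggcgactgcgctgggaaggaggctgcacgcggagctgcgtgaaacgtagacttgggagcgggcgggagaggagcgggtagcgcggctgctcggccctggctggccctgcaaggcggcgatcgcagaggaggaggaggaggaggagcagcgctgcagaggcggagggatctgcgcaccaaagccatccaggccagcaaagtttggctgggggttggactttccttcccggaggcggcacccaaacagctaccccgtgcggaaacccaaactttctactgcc
Id3 promoter, chr4:136143572-136143871, plus strand: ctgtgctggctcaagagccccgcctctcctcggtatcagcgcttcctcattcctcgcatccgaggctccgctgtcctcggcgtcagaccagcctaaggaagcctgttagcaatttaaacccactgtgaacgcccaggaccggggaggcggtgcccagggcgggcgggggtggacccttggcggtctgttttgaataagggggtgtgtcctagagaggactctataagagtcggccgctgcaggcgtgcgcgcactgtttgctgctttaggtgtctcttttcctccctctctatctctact
Smad6 promoter, chr9:64022010-64022309, minus strand: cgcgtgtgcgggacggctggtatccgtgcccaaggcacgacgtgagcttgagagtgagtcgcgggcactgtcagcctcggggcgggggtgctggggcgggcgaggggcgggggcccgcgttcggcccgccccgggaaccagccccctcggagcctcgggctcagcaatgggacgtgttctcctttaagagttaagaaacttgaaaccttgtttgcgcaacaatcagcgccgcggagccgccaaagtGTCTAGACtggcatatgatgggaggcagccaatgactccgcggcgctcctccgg

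The Gdf10 and Grem1 promoters, with 77.3% and 70.7% G+C, held one GGCGCC each. The Smad3 and Id3 promoters, with 67.7% and 60.0% G+C, held none of the searched letters.

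Among the receptors, Tgfbr1, the type I receptor of TGF-beta, had the strongest promoter peak. It ranked at 5.07% and 2.06% in the controls and at 1.84% and 2.51% in BPA, so that the groups overlapped. Acvr1c, a type I receptor expressed in fat cells, had the weakest by mean rank, at 69.1% and 50.6% in the controls and 56.6% and 41.4% in BPA, again with overlap. Tgfbr3 encodes betaglycan, a co-receptor that presents TGF-beta. Its promoter peak ranked at 10.9% and 23.5% in the controls and at 2.92% and 3.52% in BPA. The worse BPA library was still ahead of the better control by 1.63 on the log2 scale. Bmpr1b, a type I receptor of BMPs, showed the opposite order, with 16.8% and 20.1% in the controls and 62.3% and 32.9% in BPA. Its summit pile-ups were 38 and 39 in the controls and 13 and 44 in BPA. Ranked by fold over background the Bmpr1b groups overlapped.

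Among the SMADs, the strongest promoter on average was that of Smad2, a receptor SMAD of TGF-beta and activin. It ranked at 3.62% and 10.3% in the controls and at 2.45% and 0.302% in BPA. Smad9, a receptor SMAD of BMPs, was the weakest, at 25.2% and 44.0% in the controls and 35.8% and 16.1% in BPA, with overlap between the groups. Smad7, the inhibitor of TGF-beta signalling, stood at 24.2% and 34.3% in the controls and 5.46% and 4.37% in BPA. The gap between its groups was 2.15 on the log2 scale, the largest of the 38 genes. The start site of the non-coding gene Gm20544 lies within 500 bp of the same peak. Smad3, the other receptor SMAD of TGF-beta, ranked at 14.8% and 22.4% in the controls and 4.92% and 4.56% in BPA. Smad4, the common partner, ranked better in the controls, at 3.91% and 4.86% against 11.5% and 5.95%. That order was lost when peaks with a −log10 q-value below 5 were left out. The start site of 4930578L24Rik lies within 500 bp of the Smad4 peak.

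The antagonist genes with an open promoter were Chrd and Nog, which encode the BMP-binding proteins chordin and noggin. Chrd ranked at 23.8% and 30.5% in the controls and 14.5% and 10.9% in BPA. Nog ranked at 39.7% and 20% in the controls and 29.0% and 19.9% in BPA, so that its groups overlapped. The Id genes encode inhibitors of bHLH transcription factors. Id3 ranked at 34.4% and 44.8% in the controls and at 9.46% and 8.72% in BPA, a gap of 1.86 on the log2 scale. Id1 lay at 12.3%, 11.7%, 12.6% and 13% in control 1, control 2, BPA 1 and BPA 2, and Id2 at 6.07%, 3.44%, 6.27% and 11.3%. Both were nominally better in the controls, but with gaps of 0.0233 and 0.0461 on the log2 scale. Under several alternative settings the Id1 and Id2 groups overlapped, and for Id1 the order turned when weak peaks were left out. Id4 ranked at 12.3% and 5.23% in the controls and 7.69% and 8.24% in BPA. Its groups overlapped, and the start site of A330033J07Rik lies within 500 bp of its peak in at least 1 library.

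The order of the groups was then counted over the 33 promoters open in all libraries. The rank was better in both BPA libraries for 17 of them, better in both controls for 6 and overlapping for 10. Over all coding genes open in all 4 libraries, 40.7% ranked better in both BPA libraries and 18.7% in both controls. More promoters ranked better in BPA than in the controls over the whole genome too, and the pathway genes are set beside that background. Over genes open in all 4 libraries, the median log2 ratio of BPA to control rank was -0.88 for the pathway and -0.43 for coding genes. Ranked among coding promoter peaks alone, the counts were 15 and 6, against 35.6% and 24.7% of coding genes. Leaving out each library in turn gave 18 to 25 genes better in BPA and 6 to 8 better in controls. The shares of coding genes went to between 43.3% and 59.5% and between 22.0% and 32.7%. A dropped library cannot undo a better order, so these gene counts could not fall below those with all libraries.

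The 3 genes with the widest gap in favour of BPA were Smad7, Id3 and Tgfbr3. Their shifts lay at the 4.0, 7.36 and 5.36 percentiles of the coding genes with a promoter peak in all 4 libraries. The order was kept in 11 of the 12 alternative settings for each. In the remaining setting, the best 20000 peaks, these promoters lacked a peak in some library. By the shift itself Smad2 came first, with a log2 ratio of -2.83 at the 2.75 percentile, and Smad2 and Smad3 kept their order in all 12 settings. The settings that left out a library could not undo an order held by all 4, so they add no support to these tallies. In favour of the controls the widest gaps were those of Bmpr1b, Inhba and Bmp7, a ligand known for its role in brown fat. Bmp7 ranked at 27.1% and 20.8% in the controls and 39.2% and 33.6% in BPA. The gaps were 0.714, 0.482 and 0.306 on the log2 scale for Bmpr1b, Inhba and Bmp7. For Inhba the order turned when peaks were ranked by fold over background. Bmp6, counted as better in BPA by a gap of 0.0438, also turned under that ranking and among coding promoter peaks.

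**Figure D2:**
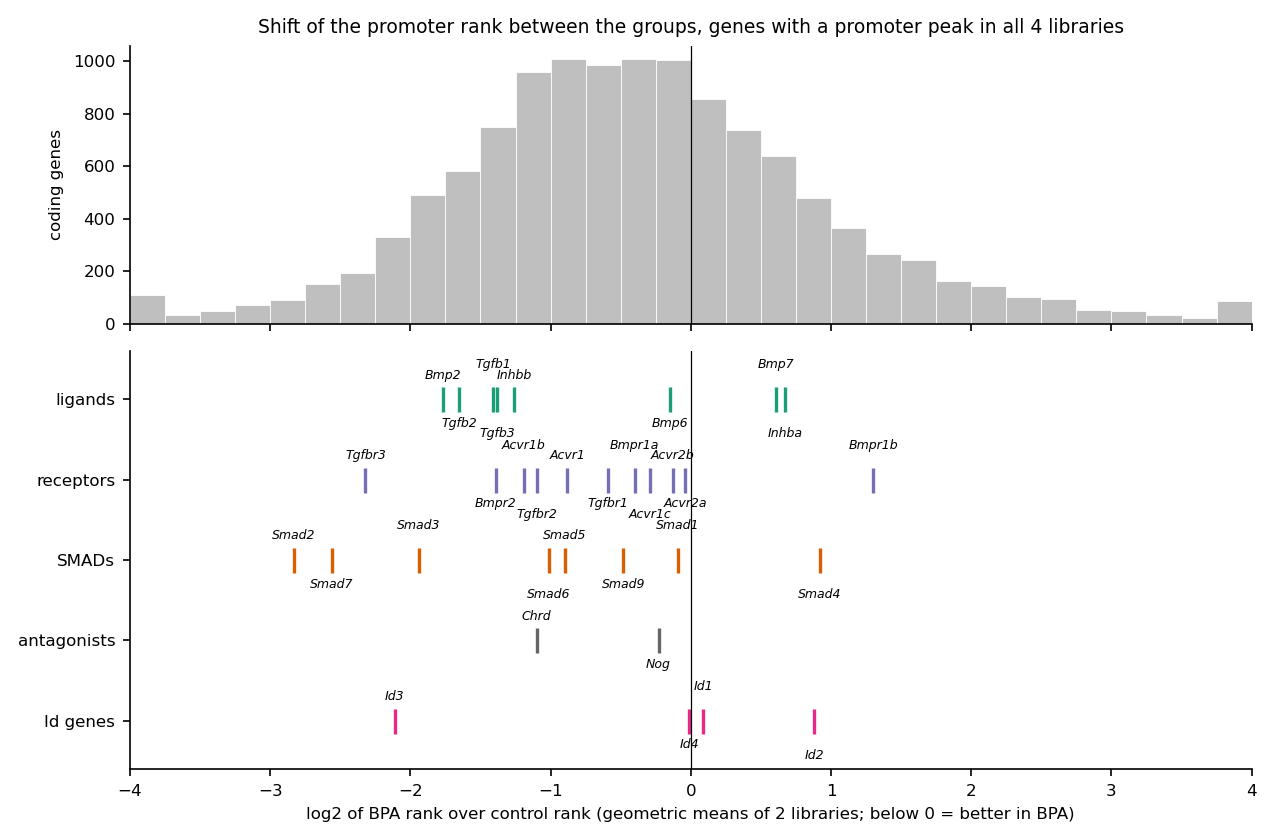
Top, number of coding genes by the log2 ratio of BPA to control promoter rank, for the 12166 genes with a promoter peak in all 4 libraries, with values beyond 4 in either direction placed in the end bins. Bottom, the 33 pathway genes on the same axis by role, of which 27 lie below 0 and 6 above.

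By role, the rank was better in BPA for 6 ligand, 5 receptor, 4 SMAD, 1 antagonist and 1 Id gene. It was better in the controls for 2 ligand, 1 receptor, 1 SMAD and 2 Id genes and for no antagonist gene. All 3 TGF-beta isoforms ranked better in BPA. Tgfb1 ranked at 26.1% and 33.4% in the controls against 15.5% and 7.94% in BPA. For Tgfb2 these values were 33.1% and 47.4% against 15.2% and 10.5%, and for Tgfb3 12.9% and 17.9% against 6.08% and 5.59%. Ranked by fold the groups of Tgfb1 overlapped. Bmp2, an osteogenic ligand, ranked at 34.0% and 49.9% in the controls against 15.4% and 9.42% in BPA. The type II receptor gene Tgfbr2 ranked at 13.3% and 10.4% against 7.87% and 3.78%, and Bmpr2 at 16.4% and 19.9% against 8.13% and 5.81%. The other genes in this group were Acvr1 and Acvr1b, both type I receptors, and Smad6, an inhibitor of BMP signalling. Acvr1 differed by a gap of 0.00388 on the log2 scale, and a start site of Upp2 lies within 500 bp of its peak. Ranges overlapped for the type II receptor genes Acvr2a and Acvr2b, for Bmpr1a and for the BMP receptor SMADs Smad1 and Smad5.

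Peaks were next counted over the whole loci, from 20 kb upstream of the first start site to the end of the gene. The loci held 365 regions after merging peaks of the 4 libraries, of 147153 in the series. All 4 libraries shared 117 of them (32.1%), and another 117 were found in 1 library alone. In the windows of all coding genes 30.1% of regions had a peak in all 4. Sharing differed by position. Of 35 regions at promoters 91.4% were present in all libraries, against 41.4% of 58 upstream regions and 22.7% of 255 intronic regions. The SMAD loci were the richest of the large groups, with 1.48 regions per 10 kb, while the receptor loci had 1.20 and the ligand loci 1.08.

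**Figure D3:**
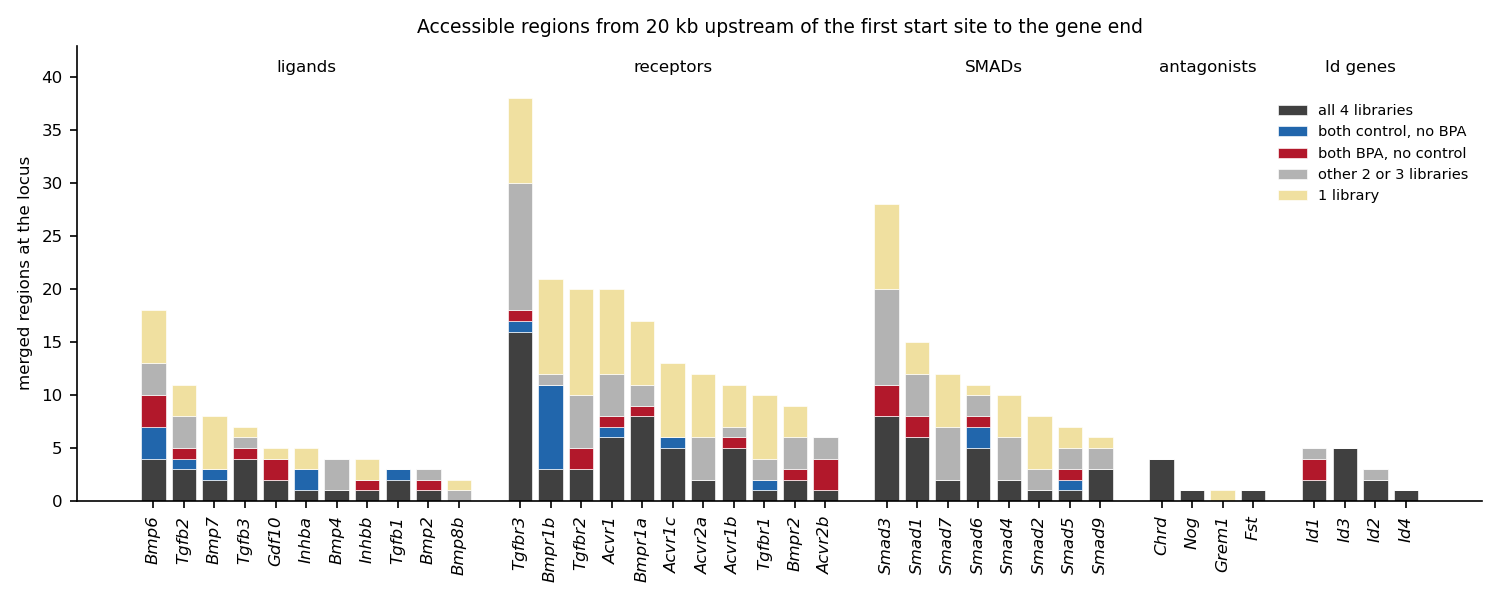
Number of merged accessible regions at each of the 38 loci by role, split by the libraries that held a peak. Tgfbr3 has the most regions, with 38, and Bmpr1b the most regions held by both controls and no BPA library, with 8.

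In all, 28 of the regions (7.67%) had a peak in both BPA libraries and no control, and 23 (6.30%) in both controls and no BPA library. In the windows of all coding genes these shares were 9.71% and 4.64%. The Bmpr1b locus alone held 8 of the 23 control regions, and without it the counts were 15 for control and 28 for BPA.

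At Bmpr1b the regions without BPA peaks were spread along the gene. Each of its 21 regions had a peak in a control library, and 4 of them had one in a BPA library. Control 1 held peaks in 18 of them, control 2 in 15, BPA 1 in 3 and BPA 2 in 4. The regions shared by all libraries were the first promoter, an internal promoter and an intronic region 105725 bp downstream of the start site. Of all 21000 coding genes, 13, Bmpr1b among them, had 8 or more regions in both controls and no BPA library. This count was made after the values at Bmpr1b had been seen. It was not scaled to window length, and the Bmpr1b window, at 352 kb, was the longest of the 38. The median local background behind the peaks at this locus was 1.5 and 1.46 times the lowest of the library in the controls and 1.33 and 1.18 times in BPA. Over all peaks it was 1.6 and 1.58 times in the controls and 2.06 and 1.73 times in BPA.

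The Smad3 locus had more peaks in BPA. Of its 28 regions control 1 had a peak in 12, control 2 in 14, BPA 1 in 19 and BPA 2 in 26. There were 3 regions in both BPA libraries alone, all intronic, and none in both controls alone. This share is near the 9.71% of all coding windows, and Bmp6, with 3 of 18, and Acvr2b, with 3 of 6, held as many. The Tgfbr3 locus had 38 regions, of which 16 were present in all libraries. It held 1 region in both controls alone and 1 in both BPA libraries alone, so that the better rank of its promoter in BPA did not go with a one-sided change along the gene.

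**Figure D4:**
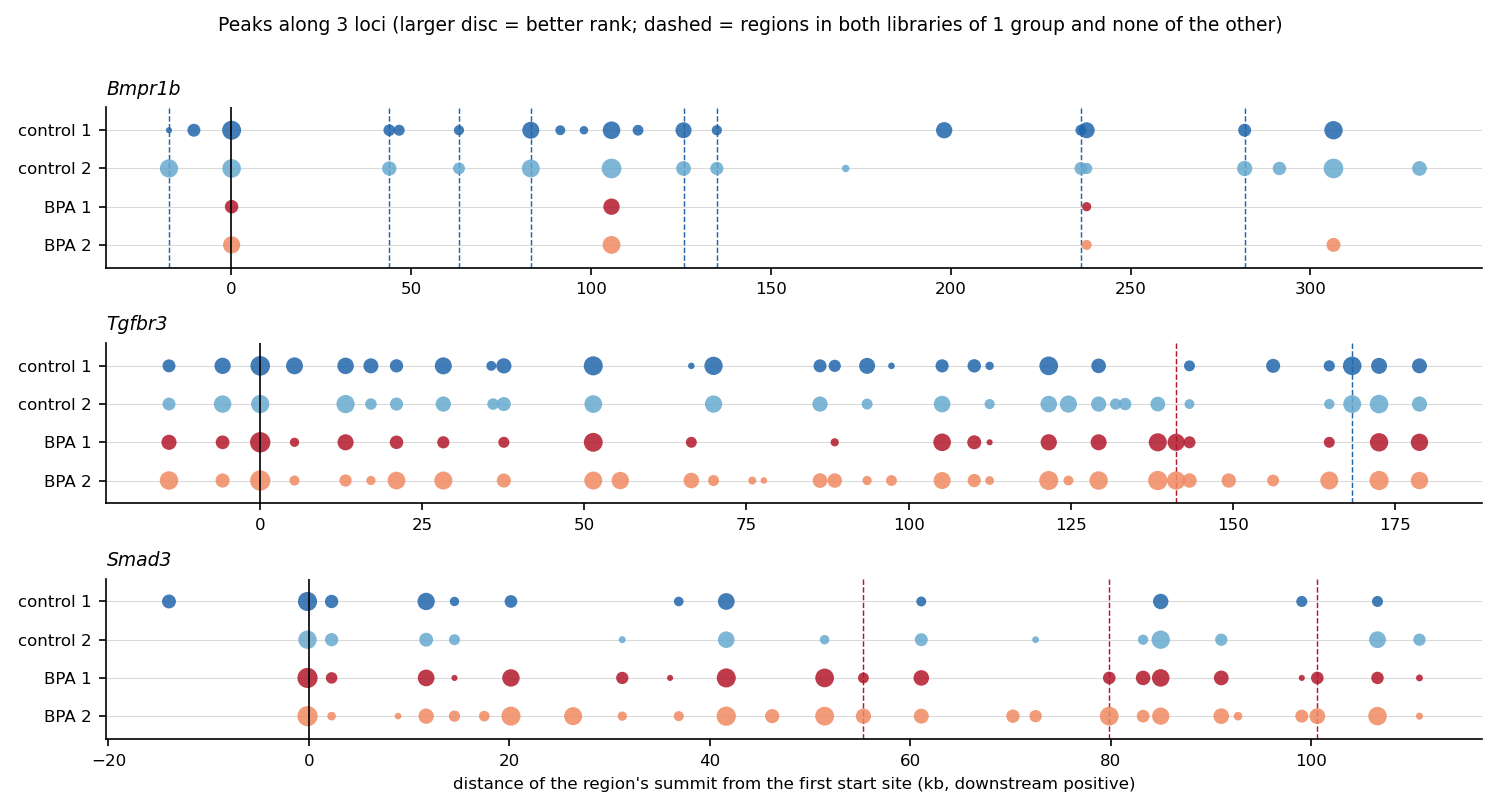
Peaks in each library along the Bmpr1b, Tgfbr3 and Smad3 loci by distance from the first start site in kb, with larger discs for better ranks. Dashed lines mark regions present in both libraries of 1 group and absent from the other, 8 at Bmpr1b, 2 at Tgfbr3 and 3 at Smad3.

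A stricter definition asked that the peaks of both replicates share at least 50% of their lengths and that no peak of the other group touch the region. At the loci 13 of 120 such BPA regions were BPA-specific (10.8%), and 12 of 119 control regions were control-specific (10.1%). Among all coding genes 18.2% and 9.37% were specific. The BPA count of the pathway depended on the peak threshold. When weaker peaks were left out, at a −log10 q-value below 5, there were 23 BPA-specific regions of 96 and 6 control-specific regions of 78, and over all coding genes 22.9% and 7.35%. Without BPA 2, the library with the highest pile-ups, 28 control regions were specific, with 19.5% over all coding genes. Without control 1 or control 2 the BPA-specific regions numbered 22 and 27, with 24.3% and 26.7% over all coding genes.

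Of the 13 BPA-specific regions 9 were intronic, 2 upstream, 1 exonic and 1 at a promoter, that of Gdf10. Of the 12 control-specific regions 9 were intronic and 3 upstream. Of all 365 regions at the loci 255 were intronic, 58 upstream and 35 at promoters. Bmp6, a BMP known for its link to iron metabolism, held 3 of the BPA-specific regions and 1 of the control-specific ones, and Bmpr1b held 4 of the control-specific regions. Ranks ran from 32.7% to 96.4% for the worse library of BPA-specific regions, and from 26.9% to 82.7% for control-specific regions, so that none was among the strongest peaks.

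The 3 best-ranked regions of each group are shown, as mm10 sequence on the plus strand from 50 bp before to 50 bp after the summit, with capitals as above. They are shown because they carry the clearest difference in presence between the groups at these loci.
Tgfbr3 BPA-specific region, chr5:107148337-107148437, plus strand: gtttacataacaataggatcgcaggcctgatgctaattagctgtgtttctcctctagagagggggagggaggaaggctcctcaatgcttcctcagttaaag
Acvr2b BPA-specific region, chr9:119430428-119430528, plus strand: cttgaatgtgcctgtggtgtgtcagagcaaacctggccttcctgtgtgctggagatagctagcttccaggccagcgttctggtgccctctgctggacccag
Id1 BPA-specific region, chr2:152728199-152728299, plus strand: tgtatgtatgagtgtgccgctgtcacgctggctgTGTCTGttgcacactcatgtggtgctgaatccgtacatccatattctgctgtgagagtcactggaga
Tgfbr3 control-specific region, chr5:107121212-107121312, plus strand: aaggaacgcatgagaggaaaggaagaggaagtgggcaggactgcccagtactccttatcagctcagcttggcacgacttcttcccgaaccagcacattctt
Bmpr1b control-specific region, chr3:142086091-142086191, plus strand: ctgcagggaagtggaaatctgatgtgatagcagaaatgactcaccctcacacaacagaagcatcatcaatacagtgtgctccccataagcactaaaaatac
Inhba control-specific region, chr13:16020754-16020854, plus strand: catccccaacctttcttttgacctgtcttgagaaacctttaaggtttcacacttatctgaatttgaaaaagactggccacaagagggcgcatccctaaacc

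The best-ranked BPA-specific region was intronic in Tgfbr3, at chr5:107147976-107148608 and 141242 bp downstream of the start site. It ranked at 32.7% in BPA 1 with a fold of 4.92 and at 22.3% in BPA 2 with a fold of 4.4. The best-ranked control-specific region lay in the same gene, at chr5:107120889-107121550, and ranked at 20.7% and 26.9% with folds of 4.08 and 4.67. Their summits were 27125 bp apart. The Acvr2b region, at chr9:119430265-119430721 in an intron of the type II activin receptor gene, ranked at 31.0% and 34.5% with folds of 7.61 and 6.02 in BPA 1 and BPA 2. The Id1 region, at chr2:152726840-152728511, lay 8002 bp upstream of the gene and ranked at 27.5% and 38.1%. In its 101 bp around the summit it held the one CAGACA match of the 6 sequences, on the minus strand.

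The Bmpr1b control-specific region, at chr3:142085461-142086332 in an intron, ranked at 34.6% in control 1 and 26.6% in control 2, with pile-ups of 25 and 34. The Inhba region, at chr13:16020599-16020956 in an intron, ranked at 43.2% and 51.2% with pile-ups of 25 and 23. The absence of peaks of the other group from these 6 regions is part of how they were chosen.

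Other genes of the pathway were open less often than the 38. Among 59 further genes of the pathway and its targets, 27 promoters were open in every library and 15 in none. Of all coding genes 57.9% were open in every library. Control 1 held a peak for 37 of the 59, control 2 for 31, BPA 1 for 39 and BPA 2 for 43. Peaks in both BPA libraries alone occurred at 4 genes, Eng, Gdf15, Chrdl2 and Nodal, and at none in both controls alone. Over all coding genes these patterns made up 2.51% and 0.433%. Eng, which encodes the endothelial co-receptor endoglin, ranked at 13.2% in BPA 1 and 10.1% in BPA 2. Of the 27, 17 ranked better in both BPA libraries and 1, the kinase gene Map3k7, in both controls. Among coding genes open in every library these shares were 40.7% and 18.7%. Acvrl1, the type I receptor of endothelial cells, was among the 17, at 52.3% and 74.3% in the controls against 23.8% and 11.5% in BPA. So was Ccn2, a matrix gene induced by TGF-beta, at 34.5% and 40.6% against 5.76% and 8.53%.

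Among the marker lists the endothelial one separated the groups most clearly. By the number of open genes, the mesothelial, epithelial and brown adipocyte lists did not separate the groups. Single genes of these lists did so, in both directions. Cdh1 had a peak in both BPA libraries alone, Wt1 ranked better in BPA and Dio2 better in the controls. The part of cell types in the results above was not tested. The endothelial genes open in both BPA libraries alone were 7 of 10, namely Pecam1, Cdh5, Erg, Tie1, Emcn, Egfl7 and Vwf. Sox17 lacked a peak in control 2 alone, and Tek and Kdr were open in all libraries and ranked better in BPA. Tie1, a receptor of endothelial cells, ranked at 10.0% and 8.43% in BPA. In the library order used above, 4, 2, 2 and 1 of 5 mesothelial genes were open, and 2, 0, 2 and 3 of 5 epithelial genes. Of 7 leukocyte genes 2, 2, 3 and 4 had a peak. For fibroblast and progenitor genes the counts were 5, 5, 6 and 6 of 6, and for pericyte and smooth muscle genes 4, 4, 5 and 5 of 5. Of 3 brown adipocyte genes 2, 3, 2 and 3 had one. In whole tissue, fewer cells with an open site and a site less open in each cell cannot be told apart.

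**Figure D5:**
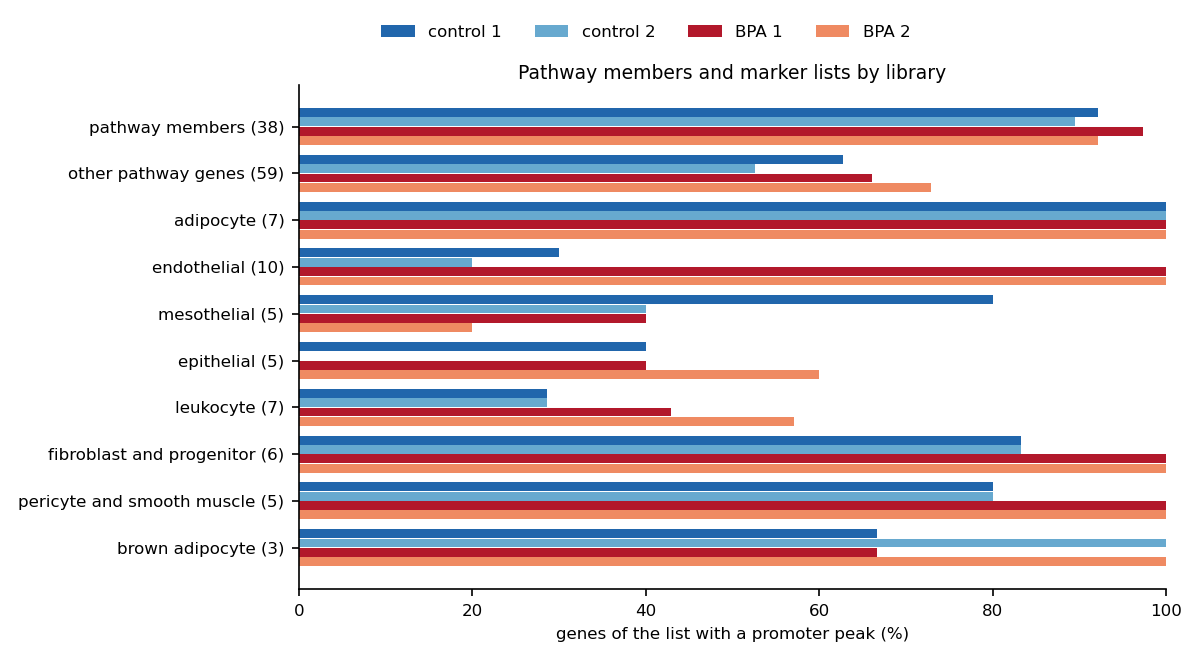
Percent of the genes of each list with a promoter peak in each library, for the 38 pathway genes, 59 other pathway genes and 8 marker lists, with the number of genes in brackets. The endothelial list goes from 3 and 2 of 10 genes in the controls to 10 of 10 in both BPA libraries, while the pathway genes stay between 34 and 37 of 38.

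Letters known as SMAD binding sequences were searched on both strands. GTCTAGAC is the SMAD palindrome, GGCGCC a site for BMP-type SMADs, and CAGACA a longer form of the SMAD box AGAC, which the palindrome also holds. Of the 365 regions, 38 (10.4%) held GGCGCC within 300 bp around the summit, against 4.56% of all regions. CAGACA was found in 29.3% against 25.6%, and GTCTAGAC in 1 region (0.274%) against 0.283%. RefSeq gave 34 promoter windows for 28 of the genes, some of which overlap within a gene. GGCGCC occurred in 12 of them (35.3%) against 11.9% of all promoters, with the same site counted in each of 2 overlapping Smad5 windows, and CAGACA in 5 (14.7%) against 21.0%. GTCTAGAC occurred in 1, that of Smad6, with its first base 4 bp before the start site, against 0.213% of all promoters. The Smad6 promoter itself ranked at 20.9% and 23.4% in the controls and 13.8% and 8.71% in BPA, with groups that overlapped when ranked by fold. GGCGCC holds only G and C, and the shares were not matched for G+C content or for position relative to genes. All regions also include those outside the windows of coding genes. A match of letters is a description of the sequence and shows no binding.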

How the data were processed

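Adipose nuclei of 4 CD-1 mouse libraries were profiled by Omni-ATAC. Per the labels and the submitters' processing notes, the authors trimmed reads with Trim Galore, mapped them to mm10 with Bowtie2 2.3.5.1, allowing fragments of up to 2 kb, dropped reads without a unique position, removed duplicates with SAMtools and, without pooling, called each library's peaks in MACS2 2.2.7.1. The deposited score is 10 times the −log10 q-value, the deposited fold is a ratio of summit pile-up to local background, and the authors' peak caller also gave a −log10 p-value and, beside it, a −log10 q-value for every peak, with q-values under 0.05. Options of the peak caller were not given in the sources used here. The deposited last column is the summit position within the peak.

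Peaks on chromosomes 1 to 19, X and Y were ranked within their list by −log10 q-value. Gene models were the 45302 curated RefSeq transcripts of GRCm38.p6, the assembly that mm10 names, with 31164 start sites, and all peaks lay inside its chromosomes. A promoter peak overlapped 500 bp either side of any curated start site, and the best-ranked one was used. Loci ran from 20 kb upstream of the first start site to the gene end. Peaks of the 4 libraries were merged where they overlapped by 1 bp. Summit pile-up and local background, which the lists do not give, were solved from fold and p-value, and the solution returned the listed p-value to a relative tolerance of 1e-04 in 100% of cases. The solving of pile-ups, promoter presence, presence in both BPA libraries alone, and the reproducible and specific regions were tested on simulated data. The rank orders, the merging over libraries and the search for letters were not. Python 3.11.15, numpy 2.4.6, scipy 1.17.1, pandas 2.3.3 and matplotlib 3.10.9 were used.

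Groups came from the sample labels. Per the methods the 4 libraries came from 4 mice. The members and the gene lists were chosen with earlier results of these data known. Genes named were those with a promoter peak in 1 group alone or in no library, the best and worst mean rank of each role, the 3 widest log2 rank gaps in each direction and the 3 best-ranked specific regions of each group. Further members are given to account for all 38. Alternatives changed the peak threshold, the number of peaks, the promoter window, the ranking, the overlap and the window of the locus, and left out each library.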

Additional observations from a re-analysis of the deposited data

How the results depend on the processing

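Of 74 values under the alternatives, 51 stayed within 1.5 times the count given above. No paired analysis was possible because the labels link no control library to a BPA library. Leaving out a library of a group leaves that group without reproducible regions, so its specific regions have no value there. With the best 20000 peaks, 17 members had a promoter peak in all libraries (40.2% of coding genes), 6 in both BPA libraries alone (4.83%), Gdf10 not among them, and 1, Bmpr1b, in both controls alone (0.538%). The rank was then better in BPA for 8 (36.8%) and in controls for 2 (23.8%), and 7 control-specific regions were left (12.3%).

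Keeping peaks whose −log10 q-value reached 5, the rank was better in both controls for 2 members (12.5% of coding genes). There were 23 BPA-specific regions of 96 and 6 control-specific regions of 78, against 22.9% and 7.35% over all coding genes. An overlap of 1 bp, and likewise merging over all 4 libraries, gave 28 BPA-specific and 23 control-specific regions. At 1 bp these were of 176 and 169 reproducible regions, against 20.3% and 11.4% over coding genes. An overlap of 80% gave 4 of 49 BPA regions and 3 of 47 control regions, against 12.5% and 6.37% over coding genes. A window to 20 kb past the gene end gave 21 BPA-specific regions of 153, against 18.5% over coding genes. With the summit inside the window 2 members, Gdf10 and Fst, were open in both BPA libraries alone (2.70% of coding genes).

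Leaving out each library in turn gave 1 to 2 members open in BPA alone, 0 to 1 in controls alone, 22 (without control 1) to 27 (without control 2) BPA-specific regions and 14 (without BPA 1) to 28 (without BPA 2) control-specific regions. The shares over all coding genes rose too, to 24.3%, 26.7%, 11.9% and 19.5% in that order. The member added without control 1 was Fst, without BPA 2 Bmp8b, and without BPA 1 Bmp4 for the controls. Depth also limits what a missing peak shows, above all in BPA 1, with the lowest median pile-up. The causes of these moves were not tested.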
